A study of Mus musculus with 4 samples.

Results

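Matrix metalloproteinases and their relatives were compared between control mandibles and mandibles that overexpress Bmp4, a secreted bone morphogenetic protein. The members were the genes named Mmp, Adamts, Adamtsl, Timp or Adam followed by a number in the current mouse nomenclature, and each was read by its brightest probe, the one with the highest mean over all arrays. The array named 74 such genes among 16637 genes in all, with 96 probes, and they comprised 22 Mmp, 16 Adamts, 4 Adamtsl, 3 Timp and 29 Adam genes. A further 11 genes of these families in the RefSeq table, Timp2 among them, were not analysed here. Total RNA of whole mandibles at stage E11.5 was hybridised to 4 one-colour Cy5 arrays. The controls were 2 arrays of wild-type C57BL/6 embryos, and the other 2 arrays were of C57BL/6 embryos with conditional Bmp4 overexpression, switched on by doxycycline for 24 hours. The driver of the transgene, the number of embryos per array and whether the controls received doxycycline are not stated in the labels used here, so an effect of the drug cannot be told apart from an effect of Bmp4. Separate litters or embryos per array are not stated either, so the p-values cover the variation among these 4 samples, some or all of which could be technical.

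The extracellular matrix is cut and released by several families of zinc-dependent proteases. Matrix metalloproteinases (MMPs) are secreted or membrane-anchored enzymes that degrade collagens, gelatins and many other proteins. ADAMTS enzymes are secreted proteases with thrombospondin repeats that cut proteoglycans such as versican or trim procollagens, and the ADAMTS-like (ADAMTSL) proteins share their layout without the protease. ADAM proteins sit in the cell membrane and release the outer parts of other membrane proteins, although many members, above all those of the reproductive tract, lack an active protease. Tissue inhibitors of metalloproteinases (TIMPs) bind and block these enzymes. In the developing jaw such enzymes reshape the matrix through which mesenchyme grows and condenses.

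The targeted gene checked the labels, since Bmp4 read 11.96 and 12.07 in the controls and 15.27 and 15.31 in the overexpression samples (normalised log2 intensity, as are all levels given here). All 8 listed markers of mandibular mesenchyme, such as Prrx1 and Hand2, lay above 6.79, the lower quartile of all probes, on every array. Of these 8, Msx1 passed as higher and Twist1 and Col1a1 as lower. They summed to 64300 to 64900 in the controls and 66200 to 67600 in the overexpression samples. Without the brightest, Msx1, the sums were 48300 to 49200 and 34500 to 35500. Markers of other cell types also differed between the groups. The summed linear intensity of 12 macrophage and myeloid markers was 3310 to 3390 in the controls and 4720 to 5020 in the overexpression samples, with the defining gene Ptprc, as well as Lyz2, below the lower quartile on all arrays. Of these, 4 passed as higher and 0 as lower. The 9 endothelial markers summed to 10100 to 10200 and 12300 to 12400, and 1 passed, as higher. The 7 pericyte markers summed to 8660 to 8670 and 11200 to 11300, with 3 passing as higher and 1 as lower; without the brightest, Acta2, the sums were 5840 to 5910 and 5840 to 6140 and overlapped. The 8 neuronal markers summed to 26500 to 36600 and 50200 to 52100, of which Elavl3 alone made up 85.6% to 90.3% and did not pass; the other neuronal markers summed to 3560 to 3810 and 5080 to 5120, and 2 of the 8 passed, both as higher. The 11 epithelial markers went both ways. Krt8, Krt18, Cdh1, Perp and Cldn6 passed as higher and Krt14 and Krt5 as lower, with a median log2 fold change of 0.21. Their sum was 45500 to 47000 in the controls and 40500 to 42700 in the overexpression samples, but 17400 to 18300 and 24500 to 25900 without the very bright Krt14. The 8 muscle markers summed to 4890 to 5010 and 6510 to 6840, with Des and Actc1 passing as higher and with Pax7 and Myf6 below the lower quartile on all arrays. Of 6 listed glial markers, the 4 measured summed to 1230 to 1330 and 929 to 1100, with 0 passing in limma. Among them 1, Sox10, was lower at an unadjusted p of 0.05, and Foxd3 lay below the lower quartile on all arrays. Without the brightest, Sox10, the glial sums were 451 to 452 and 438 to 483 and overlapped. The 6 erythroid markers summed to 205000 to 212000 and 198000 to 202000, with Alas2 passing as lower. The part of these markers in the results that follow was not tested. In whole tissue, a gene can read lower because fewer cells express it or because each cell holds less of its RNA, and these cannot be told apart.

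A small set of the protease and inhibitor genes changed, in both directions. Mmp23, Mmp2, Adamts6 and Adamts18 rose, and Adamts15, Timp3, Adamts3 and Adam5 fell (limma, adjusted p under 0.05, Benjamini-Hochberg over all 29922 probes). The 4 that rose were 5.41% of the members, where 7.39% of all genes rose, and the 4 that fell were again 5.41%, where 9.54% of all genes fell. Neither share was above the background of all genes. Part of the members read dimly: 36 had a mean below 7.95, the median of all probes, and 13 lay below the lower quartile on all 4 arrays, where the array gives little range. Among the 38 members at or above that median, 4 rose and 3 fell, while 9.63% of all genes as bright rose and 12.5% fell. The median log2 fold change of all 74 members was 0.085, and that of all genes was 0. Their median size of change was 0.21, close to the 0.23 of all genes. At an unadjusted p of 0.05, 15 members were higher (20.3%) and 8 lower (10.8%), where 17.6% of all genes were higher and 18.8% lower, 36.4% together. With the cut-off named in the study description, at least 2-fold and an unadjusted p of 0.05, Adamts6 was higher and Adamts15 and Timp3 were lower, where 1.54% of all genes were higher and 1.75% lower. The groups did not overlap for 26 members that were higher and 15 that were lower, 55.4% of the members. Over all genes, 31% were higher and 32.3% lower without overlap, 63.3% together.

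**Figure D1:**
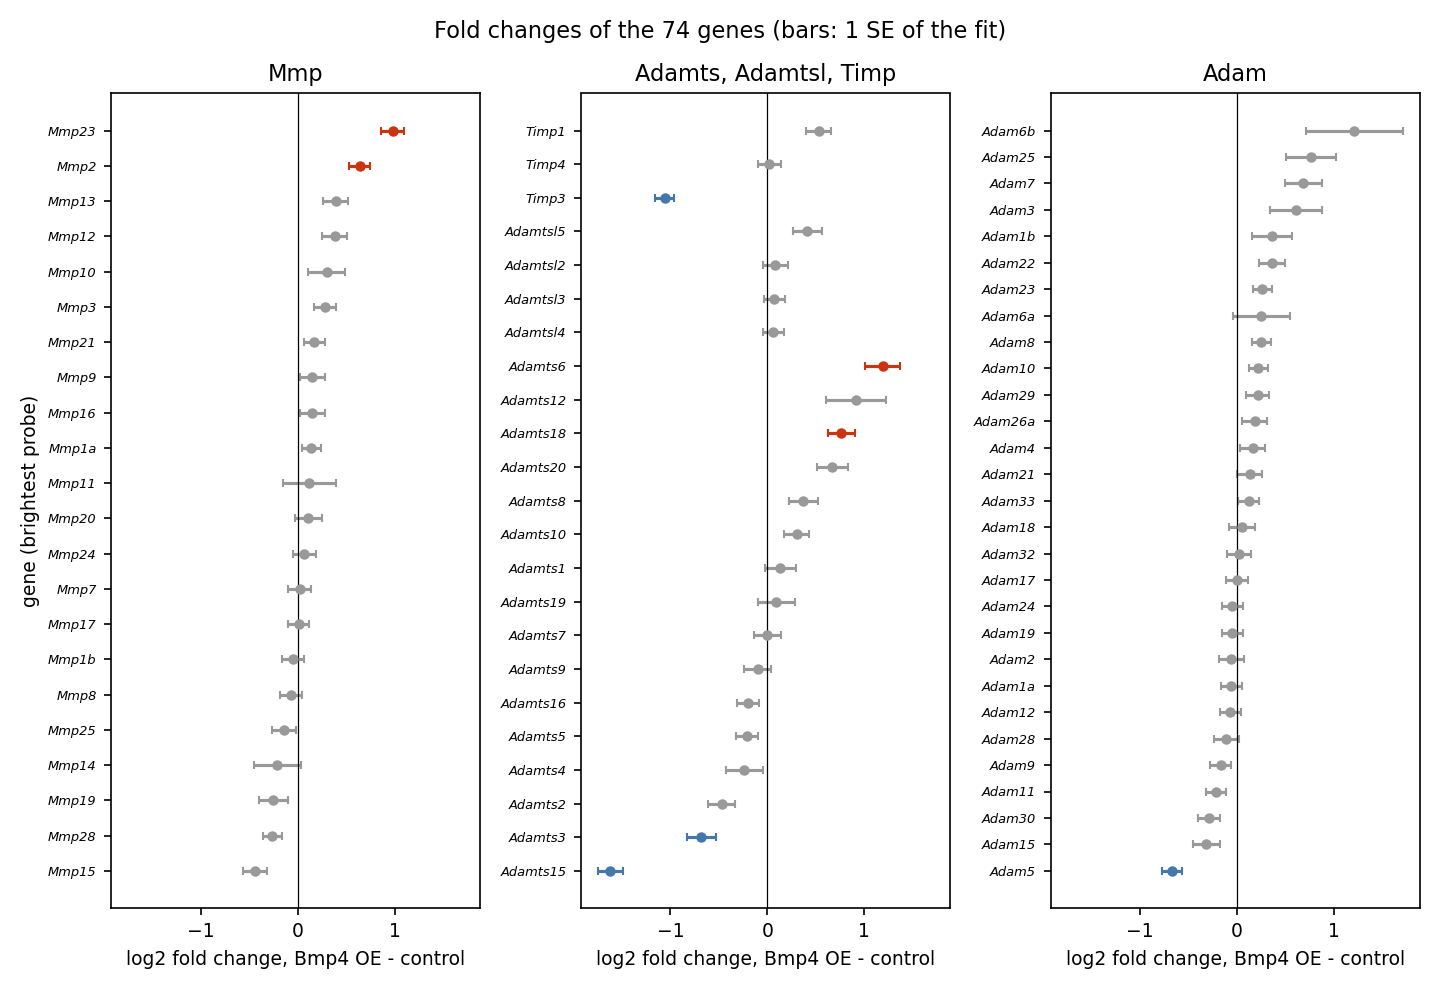
Log2 fold change of each of the 74 genes (x axis, Bmp4 overexpression minus control) by family, with bars of 1 standard error of the fit, from 2 arrays per group. Red points passed as higher, blue points as lower and grey points did not pass; Adamts6 at 1.19 and Adamts15 at -1.62 are the farthest of those that passed.

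The 3 measured inhibitor genes did not move together. Timp3 encodes an inhibitor that binds to the matrix and blocks ADAM17 and several ADAMTS enzymes in addition to MMPs. It read 11.34 and 11.33 in the controls and 10.26 and 10.29 in the overexpression samples. The groups were separated by far more than the distance between arrays of a group. Timp3 fell by 1.06 on the log2 scale (SE 0.10, a 2.08-fold decrease, limma, adjusted p = 0.00667). Its other probe also fell, from 8.31 and 8.24 to 7.45 and 7.50, with a log2 fold change of -0.80 ± 0.10 (SE, limma, adjusted p = 0.0126).

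Timp1, which encodes a soluble inhibitor of most MMPs, lay just outside the threshold in the opposite direction. It read 10.20 and 10.45 in the controls and 10.79 and 10.92 in the overexpression samples, so the groups did not overlap. The log2 fold change was 0.53 ± 0.13 (SE, 95% interval 0.21 to 0.85), and the adjusted p of 0.0509 in limma did not pass. Under other settings of the fit Timp1 passed, with adjusted p-values of 0.0445 after cyclic loess, 0.0429 with an offset of 50 on the linear scale, 0.0473 and 0.0392 without dim probes, 0.0412 with an intensity trend and 0.0386 with a robust prior. It did not pass with the replicate number as a block (0.0966), centred on the housekeeping genes (0.721) or with any array left out. Averaging the probes of each gene left Timp1, which has 1 probe, at a log2 fold change of 0.53, and it did not pass there either (limma, adjusted p = 0.051). Timp4, an inhibitor best known from heart and muscle, read 8.76 and 8.86 in the controls and 8.95 and 8.72 in the overexpression samples, and the groups overlapped. Its log2 fold change of 0.02 had a 95% interval of -0.29 to 0.34.

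Each of the 3 inhibitor genes lies inside a synapsin gene in the RefSeq annotation: Timp1 within Syn1, Timp3 within Syn3 and Timp4 within Syn2. The strand read by the probes is not known, so the host genes Syn3 and Syn1 are given beside them. No probe was named for Syn2. Syn3 read 7.78 and 8.40 in the controls and 8.77 and 8.57 in the overexpression samples, a log2 fold change of 0.58 ± 0.22 (SE) that did not pass and pointed away from that of Timp3. For Syn1 the groups overlapped, with a log2 fold change of -0.04. The 250 bases before the start sites of Timp3 and Timp1 are shown because Timp3 fell while the values of Timp1 pointed the other way. They come from the RefSeq promoter table of build GRCm38.p6, on the plus strand at chr10:86300162-86300411 and chrX:20869916-20870165, and capitals mark the GC box (GGGCGG or CCGCCC, on either strand).
Timp3: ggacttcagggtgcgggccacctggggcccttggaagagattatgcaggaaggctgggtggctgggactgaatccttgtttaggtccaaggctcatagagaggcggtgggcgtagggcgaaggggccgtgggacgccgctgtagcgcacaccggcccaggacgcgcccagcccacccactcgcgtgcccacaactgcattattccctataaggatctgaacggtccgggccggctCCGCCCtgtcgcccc
Timp1: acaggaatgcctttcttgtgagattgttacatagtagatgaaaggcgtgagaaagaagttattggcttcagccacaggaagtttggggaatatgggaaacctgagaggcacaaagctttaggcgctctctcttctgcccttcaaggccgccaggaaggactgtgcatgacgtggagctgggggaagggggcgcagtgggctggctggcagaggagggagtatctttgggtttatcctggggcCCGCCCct

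Each window holds 1 GC box, a motif found in 32.7% of all promoter windows of this length, and bases G and C make up 65.6% of the Timp3 window and 54.4% of the Timp1 window. Motifs of the kind that Smad proteins, which carry the BMP signal to DNA, are known to bind were also searched on both strands. The letters GGCGCC and the letters CAGAC or GTCTG are in neither window. Among all 32851 windows, 9.59% hold the former and 42.2% the latter. Of the members, 45 matched the promoter table, with 50 windows, of which 8 hold GGCGCC and 24 hold CAGAC or GTCTG.

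Among the 22 Mmp genes, 2 rose and 0 fell in limma; at an unadjusted p of 0.05, 5 were higher (22.7%, against 17.6% of all genes) and 2 lower (9.09%, against 18.8%). Mmp2 encodes gelatinase A, which degrades gelatin and basement membrane collagen. It read 12.76 and 12.58 in the controls and 13.32 and 13.30 in the overexpression samples. All overexpression values lay above all control values, and the level rose 1.56-fold (log2 fold change 0.64 ± 0.11, SE, limma, adjusted p = 0.0247). Mmp23 encodes a membrane-tethered enzyme that is released by furin-type cleavage. It read 9.19 and 8.99 in the controls and 10.13 and 10.01 in the overexpression samples. This was the larger rise of the pair, at 1.97-fold (log2 fold change 0.98 ± 0.12, SE, limma, adjusted p = 0.0117). Mmp23 overlaps the gene Mib2 in the annotation, and Mib2 had a log2 fold change of 0.24 ± 0.12 (SE) that did not pass.

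The membrane-anchored enzymes besides Mmp23 did not pass. Mmp14, whose product activates the Mmp2 proenzyme on the cell surface, read 10.76 and 10.18 in the controls and 10.48 and 10.04 in the overexpression samples. Its arrays of a group lay far apart, the groups overlapped, and the log2 fold change of -0.21 had a 95% interval of -0.81 to 0.39. Mmp17, another membrane-anchored enzyme, had a log2 fold change of 0.01 with a 95% interval of -0.28 to 0.29. Mmp15 read 8.85 and 8.68 in the controls and 8.27 and 8.39 in the overexpression samples, without overlap, and its log2 fold change of -0.44 ± 0.12 (SE) missed the threshold (limma, adjusted p = 0.0630). Among the other settings of the fit, Mmp15 passed as lower only when probes below the median were left out.

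The secreted collagenases, stromelysins and matrilysin mostly read dimly at this stage. Of the 4 collagenase genes, 3 lay below the lower quartile on all arrays, and the exception, Mmp13, which encodes the main collagenase of cartilage and bone, read 8.66 and 8.78 in the controls and 9.24 and 8.97 in the overexpression samples. The groups of Mmp13 did not overlap, and its log2 fold change of 0.39 ± 0.13 (SE) did not pass (limma, adjusted p = 0.109). In the stromelysin, matrilysin and metalloelastase group, 0 of 5 genes passed in limma, and 2 were higher at an unadjusted p of 0.05, as were 17.6% of all genes. Mmp12, the macrophage elastase, was among them, with a log2 fold change of 0.38 ± 0.13 (SE, limma, adjusted p = 0.103) at its brightest probe and -0.11 at its other probe, beside the higher macrophage markers given above. Mmp9, the other gelatinase gene, read 7.83 and 7.63 in the controls and 7.79 and 7.98 in the overexpression samples, which overlapped. Over the 20 Mmp genes that did not pass, log2 fold changes ran from -0.44 to 0.39.

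**Figure D2:**
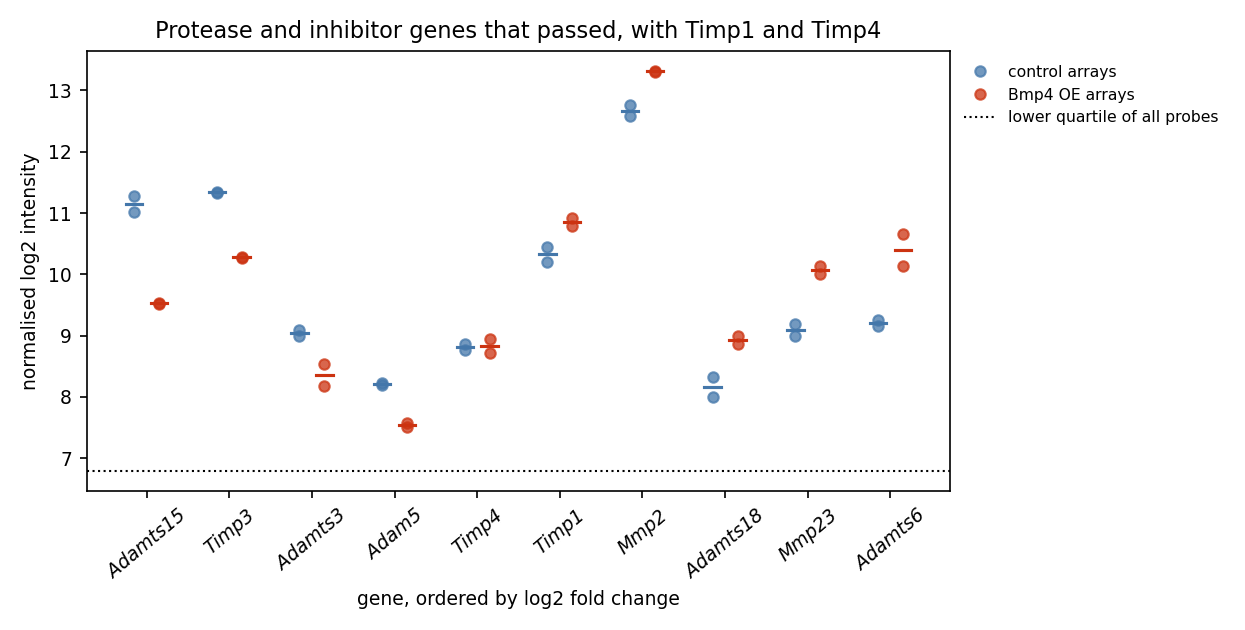
Normalised log2 intensity (y axis) of the 8 genes that passed, with Timp1 and Timp4 for comparison, on each of the 2 control arrays (blue) and 2 Bmp4 overexpression arrays (red); short lines are group means and the dotted line is the lower quartile of all probes. Adamts15 and Timp3 stand at the left with all control values above 11 and all overexpression values below 10.3, and Timp4 shows overlapping groups.

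The Adamts genes went both ways and held the largest fall and the largest rise that passed among the members. Of 16, 2 rose and 2 fell, so that 25% passed in either direction, where 16.9% of all genes did. Most were bright, with 12 of the 16 at or above the median of all probes, and 22.1% of all genes that bright passed. Adamts15 encodes a protease that cuts versican and aggrecan. It read 11.01 and 11.28 in the controls and 9.54 and 9.52 in the overexpression samples. The distance between the groups was several times the distance between the control arrays, and the level fell by 1.62 on the log2 scale (SE 0.13, a 3.06-fold decrease, limma, adjusted p = 0.00477). Adamts6 encodes a protease linked to fibrillin microfibrils and to heart development. It read 9.26 and 9.15 in the controls and 10.14 and 10.65 in the overexpression samples. The overexpression arrays differed from each other (SD 0.36), both were above the controls, and there was a 2.28-fold rise (log2 fold change 1.19 ± 0.18, SE, limma, adjusted p = 0.0186).

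Adamts18 and Adamts3 changed less. Adamts18, which encodes a secreted protease of several epithelial organs, read 8.32 and 8.00 in the controls and 8.99 and 8.86 in the overexpression samples. The groups did not overlap, and it rose 1.70-fold (log2 fold change 0.76 ± 0.14, SE, limma, adjusted p = 0.0279). Its other probe read 7.30 and 7.23 against 7.34 and 7.46, with a log2 fold change of 0.14 that did not pass. With the mean of its probes the log2 fold change of Adamts18 was 0.45, and the adjusted p of 0.0545 did not pass.

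Adamts3 encodes an enzyme that trims the amino end of procollagen and processes the lymphatic growth factor VEGF-C. It read 9.09 and 8.99 in the controls and 8.54 and 8.18 in the overexpression samples. All overexpression values were below the controls, and it fell by 0.68 on the log2 scale (SE 0.15, a 1.60-fold decrease, limma, adjusted p = 0.0397). Adamts2, the other measured procollagen N-proteinase gene, read 10.00 and 10.15 in the controls and 9.47 and 9.74 in the overexpression samples, a log2 fold change of -0.47 ± 0.14 (SE) that did not pass (limma, adjusted p = 0.0739). Its second probe moved the other way and passed, from 8.12 and 8.14 to 8.57 and 8.60, a difference of 0.45 on the log2 scale (SE 0.10, limma, adjusted p = 0.0396). The direction of Adamts2 is not settled by this array.

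At their brightest probes, the other proteoglycan-cleaving genes besides Adamts15 did not pass. Of 7 proteoglycan-cleaving genes, 1 fell and 0 rose in limma, and 1 was higher and 1 lower at an unadjusted p of 0.05. The second probe of Adamts8, also in this group, passed as lower (log2 fold change -1.05, limma, adjusted p = 0.0137). Adamts20, which encodes a versican-cleaving enzyme needed for pigment cell spread in mice, read 7.02 and 7.44 in the controls and 7.97 and 7.84 in the overexpression samples. The groups did not overlap, and its log2 fold change of 0.67 ± 0.16 (SE) lay at the edge of the threshold (limma, adjusted p = 0.0501). Adamts20 passed after cyclic loess, without probes below the lower quartile and with a robust prior. It did not pass with an intensity trend, an offset of 50, housekeeping centring, the replicate block or any array left out. Nor did it pass when the probes of each gene were averaged, which left Adamts20 with the same 1 probe. Adamts9 and Adamts1, which cleave versican, had log2 fold changes of -0.10 and 0.13 with overlapping groups. Adamts4 and Adamts5, the aggrecanases of cartilage, had -0.24 and -0.21. Adamts10, linked to microfibrils, had a log2 fold change of 0.30 with a 95% interval of -0.03 to 0.63, and Adamts7, which cuts the cartilage protein COMP, had a log2 fold change of 0.00 with an interval of -0.35 to 0.36. Over the 12 Adamts genes that did not pass, log2 fold changes ran from -0.47 to 0.91, the highest being that of Adamts12, whose control arrays read 6.43 and 7.30.

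Of the 4 Adamtsl genes, 0 passed in limma and 1, Adamtsl5, had an unadjusted p under 0.05. Adamtsl5 read 7.77 and 8.16 in the controls and 8.35 and 8.39 in the overexpression samples, a log2 fold change of 0.41 ± 0.15 (SE, limma, adjusted p = 0.134). Adamtsl2, which binds microfibrils, and Adamtsl3 had log2 fold changes of 0.08 and 0.07 with overlapping groups and 95% intervals of -0.24 to 0.40 and -0.21 to 0.34. Without overexpression replicate 2 these values were -0.06 and -0.02.

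The membrane sheddases of the ADAM family did not pass. Of 9 ADAM genes known to encode active proteases, 0 rose or fell in limma and 0 had an unadjusted p under 0.05. Over all genes these shares were 16.9% and 36.4%. For genes at or above the median of all probes, as 7 of the 9 were, they were 22.1% and 44.6%. The log2 fold changes of the 9 genes ran from -0.32 to 0.25. Adam10, which encodes the sheddase of Notch receptors, read 11.75 and 11.70 in the controls and 11.93 and 11.97 in the overexpression samples. These groups did not overlap, and the log2 fold change of 0.22 had a 95% interval of -0.03 to 0.48. Adam17, which encodes the enzyme that releases tumour necrosis factor and several ligands of the epidermal growth factor receptor, read 10.81 and 10.98 against 10.86 and 10.93. The difference was 0.00, with an interval of -0.28 to 0.28. Adam9, another sheddase, read 12.40 and 12.51 in the controls and 12.24 and 12.34 in the overexpression samples, a log2 fold change of -0.17 with an interval of -0.44 to 0.11. These intervals lie within a 1.5-fold change for each of the 3 genes.

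Of 17 ADAM genes listed as genes of the reproductive tract, Adam5 fell and the other 16 did not pass. Adam5 read 8.22 and 8.20 in the controls and 7.57 and 7.51 in the overexpression samples, a fall of 0.67 on the log2 scale (SE 0.10, limma, adjusted p = 0.0175). Its other, dimmer probe read 6.77 and 6.77 against 6.97 and 7.10, with a log2 fold change of 0.26 that did not pass, and with the mean of its probes the log2 fold change was -0.20 (limma, adjusted p = 0.204). The largest difference of all Adam genes, 1.21 for Adam6b, rested on 1 array: it read 6.22 and 6.29 in the controls and 6.64 and 8.28 in the overexpression samples, and did not pass (SE 0.50, limma, adjusted p = 0.163). Adam11, Adam22 and Adam23, which lack protease activity and are known mostly from the nervous system, had log2 fold changes of -0.22, 0.36 and 0.26 that did not pass. Their second probes differed, at 0.62, -0.14 and 0.00, and did not pass either, so no direction is given for these genes.

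Where a gene had several probes, these often differed. In 8 of the 20 members with more than 1 probe, the second-brightest probe moved in the same direction as the brightest, 40% of them, where 61.8% of 3566 genes with several probes did so. The median difference between the pair was 0.29 log2 units, and 0.28 over all such genes. For Adam22, Adam25, Adam30, Adamts5, Mmp12 and Mmp28 the second-brightest probe lay below the lower quartile on all arrays, where the array gives little range. Adam23, whose second probe had equal group means, was counted as differing. The share over all genes was not matched for brightness. Adamts8 showed the widest split, since its brightest probe read 9.01 and 9.13 against 9.62 and 9.26 and did not pass. Its second probe read 8.06 and 7.86 in the controls and 7.04 and 6.77 in the overexpression samples, a log2 fold change of -1.05 ± 0.14 (SE) that passed (limma, adjusted p = 0.0137). Adam4 was the reverse case, with 0.16 at its brightest probe and 0.47 and 0.55 at the other probes, which both passed. Of the 8 genes that passed at the brightest probe, 3 had another probe, and for Timp3 it passed in the same direction, while for Adamts18 and Adam5 it did not pass.

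**Figure D3:**
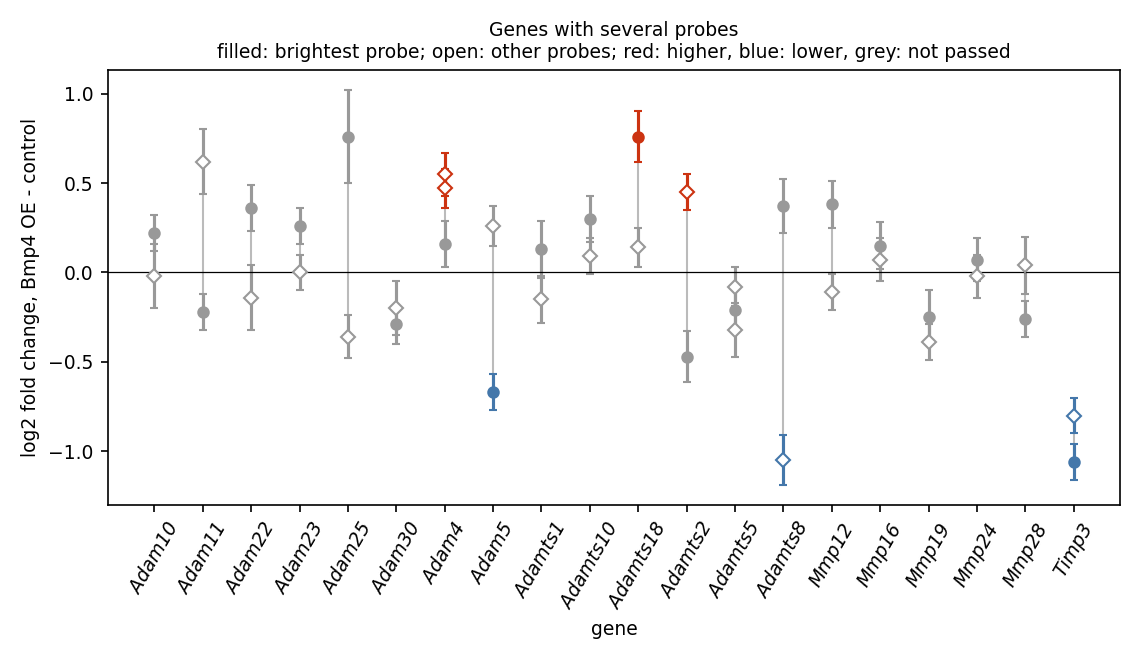
Log2 fold change (y axis, Bmp4 overexpression minus control, bars of 1 standard error) at every probe of the 20 genes with several probes; filled circles are the brightest probe, open diamonds the others. Timp3 has all probes below 0 and passing, whereas Adamts8 has its probes on opposite sides of 0, at 0.37 and -1.05.

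Other genes of matrix proteolysis were described through lists of genes that are not members. In a list of further inhibitors, 7 of 13 measured genes rose and 1 fell, with a median log2 fold change of 0.53, where 7.39% of all genes rose and 9.54% fell. Cst3, which encodes cystatin C, an inhibitor of cysteine proteases, rose by 0.75 on the log2 scale (SE 0.10), from 15.16 and 15.19 to 15.91 and 15.95, close to the top of the scale at 16. Spint1, which encodes an inhibitor of epithelial serine proteases, rose by 0.77, and Wfdc2, which encodes an epithelial protein of the whey acidic protein type, rose by 0.80. Reck, which encodes a membrane-anchored inhibitor of Mmp2, Mmp9 and Mmp14, read 10.09 and 9.90 in the controls and 10.49 and 10.63 in the overexpression samples and rose by 0.56 (SE 0.12, limma, adjusted p = 0.0380). Spock1, a testican proteoglycan, fell by 0.90. Of the others that rose, A2m encodes a broad protease trap, whereas Pcolce2 encodes an enhancer of procollagen cleavage and Serpinf1 a serpin without inhibitory activity, so the list's name does not describe them.

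Among 8 genes of the plasminogen system, 2 rose and 0 fell in limma, and 3 were higher and 2 lower at an unadjusted p of 0.05. For this list and those that follow, 17.6% of all genes were higher and 18.8% lower at that unadjusted threshold. At the adjusted threshold in limma, 7.39% of all genes rose and 9.54% fell. Serping1, which encodes the inhibitor of complement C1, read 8.93 and 8.95 in the controls and 9.97 and 10.01 in the overexpression samples, a log2 fold change of 1.05 ± 0.10 (SE, limma, adjusted p = 0.00687). Serpinf2, which encodes the plasmin inhibitor alpha-2-antiplasmin, rose by 0.72. The tissue activator gene Plat and Plg had log2 fold changes of -0.33 and -0.30 that did not pass. The proprotein convertases, which activate many MMPs and ADAMs, had 0 of 7 genes passing in limma and 2 higher at an unadjusted p of 0.05. Furin itself read 10.76 and 10.93 in the controls and 11.30 and 11.30 in the overexpression samples, a log2 fold change of 0.46 ± 0.11 (SE) at the edge of the threshold (limma, adjusted p = 0.0507). Of the 6 genes of procollagen C-proteinases, their enhancer and meprins, 0 passed in limma and 0 had an unadjusted p under 0.05.

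Among lysosomal proteases, 4 of 10 measured genes of the cathepsin and legumain list rose and 1 fell, with a median log2 fold change of 0.31. Over all genes, 7.39% rose and 9.54% fell. Among genes at or above the median of all probes, as 8 of the 10 were, 9.63% rose and 12.5% fell. Lgmn, which encodes the asparaginyl protease legumain, Ctsd, which encodes an aspartic protease, and Ctsb, a cysteine cathepsin, rose by 0.83, 0.79 and 0.73 on the log2 scale. Ctsk, the collagen-degrading cathepsin of osteoclasts, went the other way, from 8.79 and 8.58 to 8.18 and 8.03, and fell by 0.58 (SE 0.13, limma, adjusted p = 0.0386). Macrophages are rich in lysosomal proteases, and their markers were higher in the same samples, with 4 of 12 passing as higher. The part of these cells in the cathepsin values was not tested.

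Pericellular proteases, substrates and partners changed in small numbers. For each list given here, 7.39% of all genes rose and 9.54% fell in limma, 16.9% together. Of the pericellular list 18.2% passed, close to that share, and of the list of MMP inducers and ADAM partners 27.3%. In the latter list 9 of 11 genes lay at or above the median of all probes, and 22.1% of all genes that bright passed. The inducer gene Bsg in that list lay below the lower quartile on all arrays. Of 11 genes of HtrA and other pericellular proteases, 1 rose and 1 fell: Fap, which encodes a serine protease of activated fibroblasts, read 8.21 and 7.95 in the controls and 6.87 and 7.00 in the overexpression samples and fell by 1.15 on the log2 scale (SE 0.13, limma, adjusted p = 0.0101), while Htra4 rose by 0.58. Of 12 genes in the proteoglycan list, which includes ADAMTS substrates and also the Hapln link protein genes and Comp, 2 rose and 0 fell in limma. At an unadjusted p of 0.05, 4 were higher and 1 lower (17.6% and 18.8% of all genes). The genes that rose were Dcn and Bgn, small leucine-rich proteoglycans, both with a log2 fold change of 0.85. The 1 lower gene was Acan, the aggrecan gene, which read 7.43 and 7.24 in the controls and 6.75 and 6.91 in the overexpression samples. Its log2 fold change of -0.50 ± 0.12 (SE) lay at the edge of the threshold (limma, adjusted p = 0.0509). Vcan, the versican gene, read 11.28 and 11.21 in the controls and 11.48 and 11.45 in the overexpression samples, a log2 fold change of 0.22 ± 0.10 (SE) that did not pass. Of 12 genes of microfibrils and their partners, 1 rose, Ltbp3, at 0.57, and 0 fell in limma (4 were higher and 0 lower at an unadjusted p of 0.05). Of 11 genes of MMP inducers and ADAM partners, the tetraspanin gene Cd151 rose by 0.80, while Tspan5 and Tspan15, which encode tetraspanins that guide ADAM10, fell by 0.73 and 0.51.

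**Figure D4:**
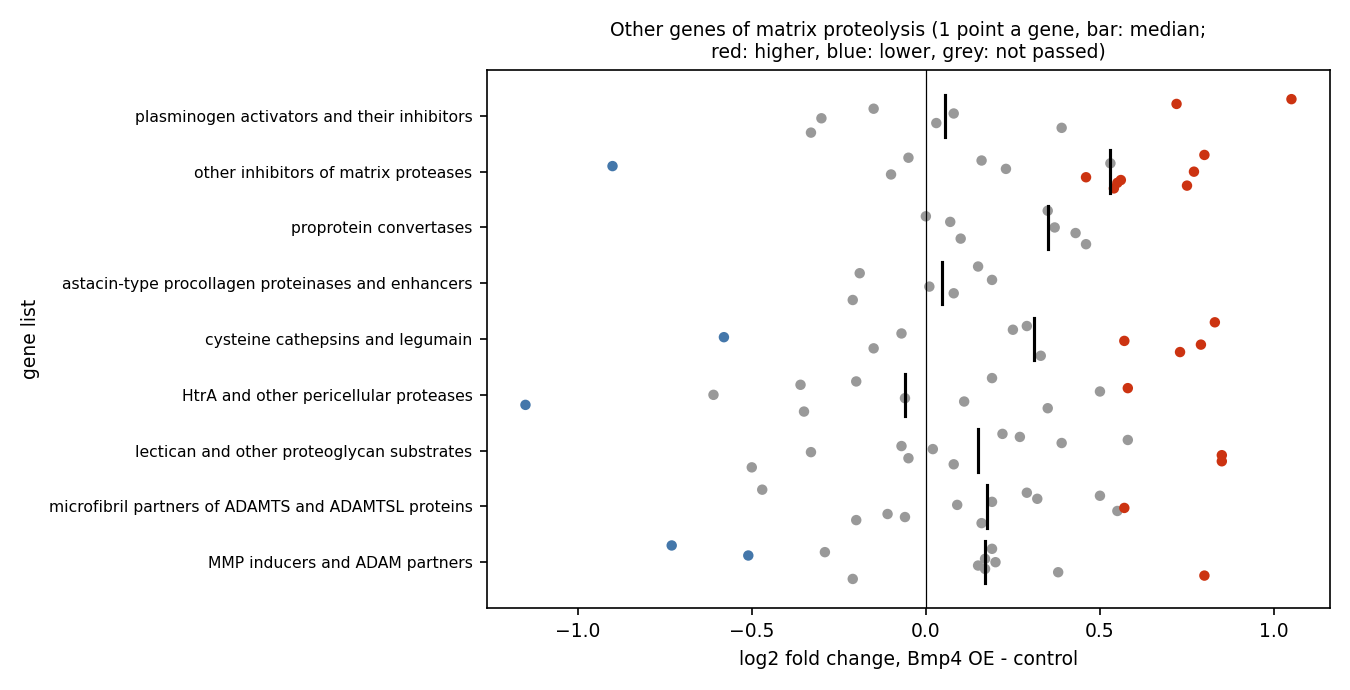
Log2 fold change (x axis, Bmp4 overexpression minus control) of the measured genes in 9 lists of other matrix proteolysis genes, 1 point per gene, with a black bar at the median of each list; red points passed as higher, blue as lower and grey did not pass. The list of other inhibitors has its median at 0.53 and 7 red points, and Fap at -1.15 is the lowest point.

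When control replicate 1, control replicate 2, overexpression replicate 1 and overexpression replicate 2 were left out in turn, 0 members and 0 probes in all passed the adjusted threshold in limma, with 1 residual degree of freedom left. The members with an unadjusted p under 0.05 then numbered 10, 20, 13 and 16, against 23 with all arrays. As shares of the members these were 13.5%, 27%, 17.6% and 21.6%, against 31.1%, and the shares of all genes were higher in each case, at 22.7%, 28.7%, 24.7% and 27.4%, against 36.4%. Log2 fold changes without an array ranged from -1.75 to -1.48 for Adamts15 and from 0.93 to 1.44 for Adamts6. With each array centred on the median of 10 measured housekeeping genes, the genes that had passed all had the same standard error of 0.32. Their calls in this setting thus followed the size of the fold change, not the spread of each gene. Adamts15, Timp3 and Adamts6 passed there, and Adam6b newly passed as higher. The genes Mmp23, Mmp2, Adamts18, Adamts3 and Adam5 did not, with adjusted p-values of 0.125, 0.558, 0.371, 0.297 and 0.311 in limma. Their log2 fold changes were then 0.91, 0.57, 0.70, -0.75 and -0.74.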

How the data were processed

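The authors deposited 1 normalised log2 intensity per probe and array for 29922 probes on 4 arrays, which covered 2 control and 2 Bmp4 overexpression samples. Per the labels' protocols, amplified aminoallyl RNA made from total RNA was labelled with Cy5. The log2 scale and the quantile normalisation between arrays were read from the values, whose maximum was 16 and whose sorted columns were identical (largest difference 0). Normalisation of this kind hides a shift common to most genes. For scanner, background correction and software nothing is stated, and no detection calls entered. The number of arrays limits the precision. Probe symbols were updated through the GRCm38.p6 RefSeq table: 17558 were current, 3410 were mapped by a synonym, 52 were kept and 8902 probes had none.

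In R 4.3.3, all probes were fitted together by lmFit and eBayes of limma 3.58.1 (two-sided, 2 residual degrees of freedom and a prior of 3.59), with Benjamini-Hochberg adjustment and no filter or covariate. An exact permutation test of 2 against 2 cannot go below 0.333. SDs and standard errors are between arrays.

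Named were the members that passed either threshold, all Timp genes, the 3 brightest members of each other family and up to 4 genes with the smallest p in each list; Reck, Vcan, Mmp15, Mmp13, Mmp12, Mmp9, Adamts1, Adamts2, Adamts4, Adamts5, Adamts8, Adamts9, Adamts12, Adamts20, Adam4, Adam6b, Adam11, Adam22, Adam23, A2m, Pcolce2 and Serpinf1 were added after their values were seen. The members and lists were chosen with earlier results of these data known. Alternatives covered scaling, offset, filter, prior, probe choice, the replicate block and leaving out each array.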

Additional observations from a re-analysis of the deposited data

How the results depend on the processing

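With the replicate number as a block, 0 members rose, 0 fell and 0 of all probes passed (lowest adjusted p of 0.0745 in limma, with 17 members and 8724 probes at an unadjusted p under 0.05). Deviations of the arrays numbered 1 correlated with r = -0.0711, so the numbers were not taken as pairs. Centring on the housekeeping genes gave the genes that had passed a common standard error of 0.32. There 2 members rose (Adamts6 and, newly, Adam6b, which rested on 1 array) and 2 fell (255 probes higher and 465 lower). At the study threshold, 2 members were higher. That number was also 2 after cyclic loess and 2 with an intensity trend, and robust moderation gave 7 rises. With the mean of each gene's probes 1 member was lower at the study threshold. Leaving out any 1 array gave 0 rises and 0 falls of members and 0 probes in each direction (limma, with 10 to 20 members at an unadjusted p under 0.05), and 1 to 3 members higher at the study threshold: 3 when control replicate 2 was dropped, and 2 each when control replicate 1 or Bmp4 overexpression replicate 1 was. Under the other settings all counts stayed within 1.5 times. All 8 genes that passed kept their direction under each alternative that tested them. The cause of these changes was not tested. Values below 6.79 or near 16 are compressed.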
